A study of Mus musculus with 9 samples.

Results

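The 10 genes described here encode the receptors through which blood vessels read vascular endothelial growth factor (VEGF) and the angiopoietins, together with partners of these receptors: the VEGF receptors Flt1, Kdr and Flt4, the co-receptors Nrp1 and Nrp2, the angiopoietin receptor Tek and its relative Tie1, the receptor phosphatase Ptprb, and the ligands Vegfa and Angpt2. Members were all probes that carried 1 of these names in the annotation of the Fzd8-CRD arrays, 22 of 41174 probes on 49 spots. In 16 of the 22 probes and 9 of the 10 genes the signal passed the filter on dim probes, which asked for a tumour-channel signal well above background on at least 4 of the 9 arrays. The same filter left 18259 genes in all. Flt4 did not pass.

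The arrays carry mouse tumour cells on dual-colour Agilent 60-base oligonucleotide arrays. Every array is labelled as coming from MMTV Wnt-1 and MMTV-Her2 tumours, mammary tumours driven by a Wnt1 or a Her2 (Erbb2) transgene under the mouse mammary tumour virus promoter, which is active mainly in mammary epithelium; the labels do not say which array came from which model, so the models could not be separated. Cells were taken fresh from tumours and the GFP-negative fraction was sorted; the labels do not state which cells GFP marked. The control group has 4 arrays and the other group has 5 arrays of cells treated with Fzd8-CRD, the Wnt-binding domain of Frizzled 8, which acts as a soluble trap for Wnt proteins. Both groups are described as biological replicates. The protocol text names the Wnt inhibitor for all 9 arrays, controls included, and the group was taken from the treatment label. Cy5 carried the tumour RNA and Cy3 a common reference RNA, so the log2 ratio is tumour over reference. The labels describe that reference in conflicting ways, as mouse, as human and as a pool of strains.

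VEGF binds Kdr and Flt1 on endothelial cells; Kdr carries most of the growth and permeability signal, and Flt1 binds VEGF tightly but signals weakly, and is also made in a soluble form that holds VEGF away from Kdr. Flt4 is the receptor of the lymphatic factors VEGF-C and VEGF-D, and the neuropilins Nrp1 and Nrp2 hold VEGF or semaphorins for the signalling receptors. The angiopoietins act through Tek (also called Tie2), with Tie1 as a partner, and Ptprb (VE-PTP) removes phosphate from Tek; Angpt2, which endothelial cells release themselves, is a weak or opposing ligand of Tek, and tumour vessels are known for making it.

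The results rest on the following probes, shown by the first 30 of their 60 bases because the probes differ in the transcript form and the distance from the transcript end that they read. Coordinates are those of the whole probe in mouse build mm8, as the Fzd8-CRD files give them.
Kdr, probe A_51_P316553, chr5:76214981-76215040, minus strand: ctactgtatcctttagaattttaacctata
Flt1, probe A_51_P398723, chr5:147872564-147872623, minus strand: aagtaaagaaaagctatcgggattctctgg
Flt1, probe A_52_P520859, chr5:147872637-147872696, minus strand: cctgtattattccgattttaataatctaat
Flt1, probe A_52_P307922, chr5:147948554-147948613, minus strand: caccaagctttgatggcattcaaagatgtc
Nrp1, probe A_51_P469285, chr8:131388840-131388899, plus strand: ttgtggatggtgtaaagttgaaaaaagata
Tek, probe A_51_P130374, chr4:94366188-94366246, plus strand: ctctaatgtgactgtatatactgctcggag
Tie1, probe A_51_P177171, chr4:117969459-117969518, minus strand: gtgaacatgtcgctgtttgagaacttcacc
Ptprb, probe A_51_P215475, chr10:115787966-115788025, plus strand: caatctactcgagacattaagaattcacct
Angpt2, probe A_51_P201982, chr8:18691435-18691494, minus strand: acctatcttgatggcttagtttttaatggc
Vegfa, probe A_51_P482552, chr17:45482144-45482203, minus strand: actggattcgccattttcttatatctgctg
Vegfa, probe A_52_P638895, chr17:45481019-45481078, minus strand: cagatcggtgacagtcactagcttgtcctg
The first pair of Flt1 probes starts 73 bases apart near the end of the full-length transcript, and the third Flt1 probe lies 75990 bases from the first and is annotated to other records, among them one of a shorter, soluble Flt1. The Vegfa probes A_51_P482552 and A_52_P638895 start 1125 bases apart. The GC content of the 22 probes ran from 25.0% to 53.3% with a median of 40.0%, and the median over all probes was also 40.0%.

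RefSeq promoter windows (GRCm38.p6) were read for 8 of the 10 members, all but Angpt2 and Ptprb. The windows of the 4 receptor kinases that were lower in the arrays are shown for the 250 bases before the annotated start, with the ETS core motif GGAAG (or CTTCC on the other strand) in capitals.
Kdr promoter, chr5:75978456-75978705, minus strand: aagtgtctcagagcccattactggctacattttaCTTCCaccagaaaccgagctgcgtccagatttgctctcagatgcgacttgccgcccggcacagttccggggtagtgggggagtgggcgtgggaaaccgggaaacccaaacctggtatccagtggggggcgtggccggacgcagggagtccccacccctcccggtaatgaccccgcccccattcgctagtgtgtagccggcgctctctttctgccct
Flt1 promoter, chr5:147726012-147726261, minus strand: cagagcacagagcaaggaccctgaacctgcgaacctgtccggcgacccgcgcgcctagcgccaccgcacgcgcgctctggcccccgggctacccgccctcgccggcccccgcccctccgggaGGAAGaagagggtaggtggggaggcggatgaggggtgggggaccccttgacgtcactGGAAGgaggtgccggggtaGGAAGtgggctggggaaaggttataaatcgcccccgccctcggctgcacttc
Tie1 promoter, chr4:118489850-118490099, minus strand: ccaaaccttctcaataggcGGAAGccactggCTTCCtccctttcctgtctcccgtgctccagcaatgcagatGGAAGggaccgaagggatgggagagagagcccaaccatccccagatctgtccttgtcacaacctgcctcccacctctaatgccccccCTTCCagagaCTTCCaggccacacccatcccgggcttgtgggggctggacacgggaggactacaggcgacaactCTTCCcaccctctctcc
Tek promoter, chr4:94739039-94739288, plus strand: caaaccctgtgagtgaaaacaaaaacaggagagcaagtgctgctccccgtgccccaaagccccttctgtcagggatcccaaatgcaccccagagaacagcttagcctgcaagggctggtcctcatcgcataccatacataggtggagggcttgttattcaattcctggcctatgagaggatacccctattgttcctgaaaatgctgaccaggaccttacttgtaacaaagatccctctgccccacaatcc
The GGAAG core occurred in 6 of the 8 genes' windows, against 64.1% of all 32851 windows of that length. Tie1 held 6 copies, Flt1 held 3, Kdr held 1, and Tek held none. The Tek window held 2 copies of the SOX letters ACAAT, present in 27.7% of all windows, and no other member window held any. The hypoxia core ACGTG was found in 1 of the 2 Vegfa windows and in no other member, against 16.6% of all windows. The match was in the Vegfa window further downstream in the gene, chr17:46025164-46025413. The upstream Vegfa window, chr17:46032378-46032627, held no match. Both strands were searched, and a match is only a run of letters.

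In the ratio the receptors Kdr, Flt1, Tek and Tie1, the phosphatase Ptprb and the ligand Angpt2 were called lower in the Fzd8-CRD arrays, and the neuropilins and Vegfa did not pass the test. In the log2 ratio 6 of the 9 tested members were called lower and 0 higher (limma, Benjamini-Hochberg adjusted p under 0.05 over all genes), where 7.76% of all 18259 genes were called lower and 6.58% higher. The median difference over the 9 members was -1.31, and over all genes it was -0.07. In Cy5 alone, which leaves out the reference channel, 7 of the 9 were called lower and 0 higher, against 8.71% lower and 10.1% higher over all genes; the added member was Nrp1. Every Fzd8-CRD array lay below every control for 6 members in the ratio, where 11.7% of all genes did so, and for 6 members in Cy5 alone, where 12.5% did. In the reference channel 3 members were called lower and 2 higher, against 32.1% and 27% of all genes. Without control replicate 2, an array that stands apart from the others, the counts were 6 lower and 1 higher in the ratio (background 9.58% and 7.38%) and 6 lower in Cy5 alone (background 10.2%).

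**Figure D1:**
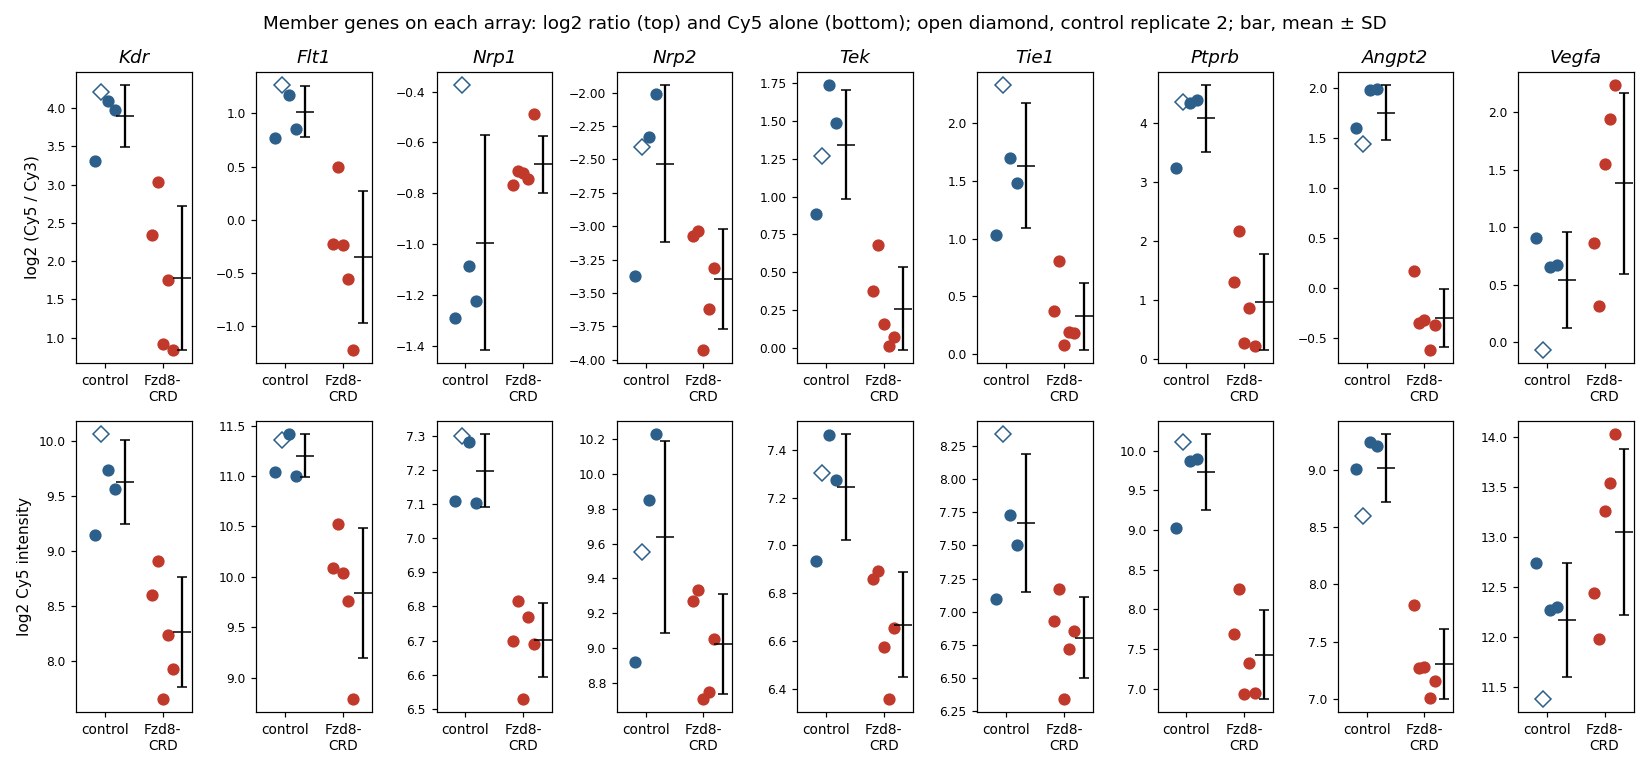
Log2 ratio of Cy5 to Cy3 (top row) and log2 Cy5 intensity (bottom row) of the 9 tested members on each array, control in blue and Fzd8-CRD in red, with control replicate 2 as an open diamond and the mean ± SD as a bar. In the ratio the groups do not overlap for Kdr, Flt1, Tek, Tie1, Ptprb and Angpt2; each panel has its own vertical axis.

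The arrays themselves set limits on these counts. The 4 control arrays share 1 slide and 1 scan day, and the 5 Fzd8-CRD arrays lie on 4 other slides scanned on other days, so treatment and slide or scan cannot be told apart. The reference channel, which should hold 1 RNA, differed between the groups for 59.1% of genes, and so each tested member's Cy3 difference is given beside its ratio. The single channels were normalized apart from the ratio, so a member's Cy5 and Cy3 differences need not add up to its ratio difference. For Ptprb the ratio differed by -3.12, Cy5 by -2.30 and Cy3 by -0.14. The part of normalization in this gap was not tested. Control replicate 2 correlated with the other arrays at 0.618 to 0.737 over genes, whereas r ran from 0.899 to 0.979 among the other controls and from 0.892 to 0.976 among the Fzd8-CRD arrays. Well-above-background Cy5 signals covered 63.8% to 70.8% of probes on the control arrays and 52.4% to 60.0% on the Fzd8-CRD arrays. The number of arrays limits the precision.

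Kdr, the main signalling receptor for VEGF, was lower in the tumour channel. Its Cy5 intensity on the log2 scale was 9.15, 10.06, 9.74 and 9.56 on the control arrays and 8.60, 8.91, 7.66, 8.24 and 7.93 on the Fzd8-CRD arrays. Every Fzd8-CRD array lay below every control. The Cy5 difference was -1.36 (SE 0.27, limma adjusted p = 0.0111), or 2.57-fold lower. The log2 ratio fell from a mean of 3.90 ± 0.41 (SD, n = 4) to 1.78 ± 0.94 (SD, n = 5), a difference of -2.12 (SE 0.44, limma adjusted p = 0.0157). The ratio of Kdr is the less certain of these values, because its reference signal was well above background on 4 of 4 control arrays and on 0 of 5 Fzd8-CRD arrays. On the Fzd8-CRD arrays the scanner software had replaced 37 of 50 Kdr spot values in Cy3 by surrogate values, on the control arrays 0 of 40; with the scanner's own log ratio the Kdr difference was 0.33 (limma adjusted p = 0.582). Cy3 itself differed by -0.20. The other Kdr probe, A_52_P478193, which targets a different transcript record, was not well above background on any array.

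Flt1, the high-affinity VEGF receptor, was lower in all 3 of its probes that could be read. At the chosen probe the log2 ratio was 0.77, 1.27, 1.17 and 0.86 on the control arrays. On the Fzd8-CRD arrays it was -0.23, 0.50, -0.24, -0.55 and -1.22, and no value reached the lowest control. The difference was -1.36 (SE 0.30, limma adjusted p = 0.0179), 2.57-fold lower, and Cy5 alone gave -1.37 (limma adjusted p = 0.0159) with a Cy3 difference of -0.03. The call was lost, at a similar size, without control replicate 3 (-1.31, limma adjusted p = 0.0533). The probe 73 bases away, A_52_P520859, gave -0.72 (SE 0.17, limma adjusted p = 0.0250; 0.0503 to 0.0699 without Fzd8-CRD replicate 1, 4 or 5 or control replicate 3), where 14.6% of all 26823 kept probes were called in either direction. The probe annotated to records that include soluble Flt1, A_52_P307922, gave -1.27 (SE 0.19, limma adjusted p = 0.00564) in the ratio and -1.57 in Cy5 alone, with a Cy3 difference of -0.46. The difference between the probes was not tested. The remaining Flt1 probes, A_52_P405145 and A_52_P650151, were not well above background in Cy5 on any array. In Cy3, A_52_P405145 was well above background on 4 of 4 control and 0 of 5 Fzd8-CRD arrays.

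Flt4, the lymphatic VEGF receptor, was close to the detection limit. Its single probe was well above background in Cy5 on 2 of 4 control arrays and on 0 of 5 Fzd8-CRD arrays. Its log2 Cy5 was 6.42, 6.57, 6.60 and 6.62 on the control arrays and 6.44, 6.24, 6.15, 6.29 and 6.28 on the Fzd8-CRD arrays, so that control replicate 1 overlapped the treated group. After a further normalization of average intensities between arrays, its mean log2 Cy5 was 6.61 on the control and 6.28 on the Fzd8-CRD arrays. Dimmer Fzd8-CRD values were then replaced by the lowest signal that counts as above background on their array, and control was 1.23-fold higher. Control values were left as measured, though only 2 of the 4 controls were well above background, so this is not a lower bound. With no filter on dim probes, over 27568 genes, its ratio difference was -0.27 (SE 0.08, limma adjusted p = 0.0604). The size of the Flt4 difference remains unknown.

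The neuropilins were not called in the ratio, and whether they differed from the kinase receptors was not tested. Nrp2, a co-receptor for VEGF-C and semaphorins, had log2 ratios of -3.38, -2.41, -2.33 and -2.01 on the control arrays and -3.08, -3.03, -3.92, -3.62 and -3.32 on the Fzd8-CRD arrays. Control replicate 1 lay among the Fzd8-CRD arrays and the other controls lay above all of them. The difference was -0.86 (95% interval -1.51 to -0.22, limma adjusted p = 0.0747), and without control replicate 1 it was -1.14 (limma adjusted p = 0.0169). In Cy5 alone it was -0.61 (limma adjusted p = 0.120), and -0.85 (limma adjusted p = 0.0326) without that array. The reference channel was higher on every Fzd8-CRD array than on any control, by 0.17 (limma adjusted p = 0.00874).

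Nrp1, the VEGF-A and semaphorin 3A co-receptor, had no settled direction. The log2 ratio was -1.29, -0.37, -1.09 and -1.23 on the control arrays and -0.77, -0.71, -0.72, -0.74 and -0.49 on the Fzd8-CRD arrays. The Fzd8-CRD arrays lay above 3 controls and below control replicate 2. The difference was 0.31 (95% interval -0.11 to 0.73, limma adjusted p = 0.284), and 0.51 (limma adjusted p = 0.0167) without control replicate 2. Cy5 alone pointed the other way, from a mean of 7.20 ± 0.11 (SD, n = 4) to 6.70 ± 0.11 (SD, n = 5), a difference of -0.50 (limma adjusted p = 0.0156) with no overlap, and -0.47 (limma adjusted p = 0.0512) without control replicate 3. This signal was dim, well above background in Cy5 on 4 of 4 control and 2 of 5 Fzd8-CRD arrays. At the same probe the reference channel was also lower on the Fzd8-CRD arrays, by -0.65 (limma adjusted p = 6e-06), and its part in the result was not tested. The other Nrp1 probes gave ratio differences of 0.33 (A_52_P174942) and 0.19 (A_52_P371237), neither called, and Cy5 differences of 0.22 and -0.16. A_52_P371237 was well above background in Cy5 on 4 of 4 control and 0 of 5 Fzd8-CRD arrays. On the scale used for the Flt4 fold its mean log2 Cy5 was 6.67 on the control and 6.79 on the Fzd8-CRD arrays, opposite in direction to its Cy5 difference of -0.16.

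Read probe by probe, 8 of the 16 kept member probes were called lower and 1 higher, where 7.85% and 6.76% of all kept probes were.

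**Figure D2:**
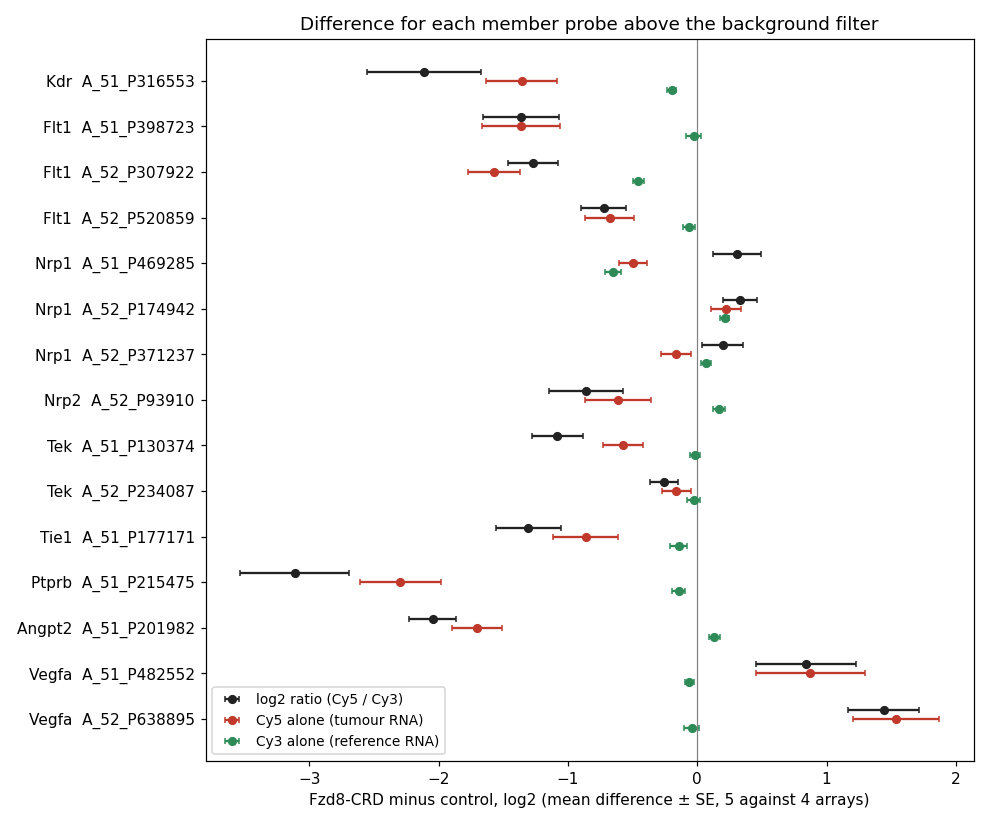
Mean difference between Fzd8-CRD and control arrays on the log2 scale, with its SE, for 15 of the 16 member probes above the filter, for the ratio (black), Cy5 alone (red) and Cy3 alone (green). At the chosen probes of Kdr, Flt1, Tek, Tie1, Ptprb and Angpt2 the red points lie between -2.30 and -0.58 and the green points between -0.20 and 0.13. The red point of Tek A_52_P234087 is at -0.16, and at Nrp1 A_51_P469285 the red and green points are both below 0 and the black point is above it.

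Tek and its relative Tie1 were both called lower. Tek, the angiopoietin receptor, had log2 ratios of 0.88, 1.27, 1.74 and 1.49 on the control arrays and 0.38, 0.68, 0.16, 0.01 and 0.07 on the Fzd8-CRD arrays, without overlap. The difference was -1.08 (SE 0.20, limma adjusted p = 0.0107), 2.12-fold lower. In Cy5 alone Tek differed by -0.58 (SE 0.16, limma adjusted p = 0.0316) and the call was lost without Fzd8-CRD replicate 3, 4 or 5 or without control replicate 3 or 4 (-0.57 to -0.50, limma adjusted p from 0.0578 to 0.0870). Tek was a dim probe: it was well above background in Cy5 on 4 of 4 control arrays and 2 of 5 Fzd8-CRD arrays, and in Cy3 on none, where it differed by -0.019. The probe A_52_P234087, which targets another Tek record, was not called in the ratio (-0.26, limma adjusted p = 0.128) or in Cy5 alone (-0.16, limma adjusted p = 0.321). It passed the filter through the control group alone, with a Cy5 signal well above background on 4 of 4 control and 0 of 5 Fzd8-CRD arrays. On the scale used for the Flt4 fold its mean log2 Cy5 was 6.69 on the control and 6.48 on the Fzd8-CRD arrays. Control was 1.16-fold higher as measured, which is not a lower bound.

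Tie1, the orphan partner of Tek, had log2 ratios of 1.03, 2.33, 1.70 and 1.48 on the control arrays. On the Fzd8-CRD arrays they were 0.38, 0.81, 0.07, 0.19 and 0.18, again below every control. The difference was -1.31 (SE 0.26, limma adjusted p = 0.0123), 2.47-fold lower, and without control replicate 2, its highest array, -1.07 (limma adjusted p = 0.0133). Cy5 alone gave -0.86 (SE 0.25, limma adjusted p = 0.0410), with control replicate 1 at 7.10 below Fzd8-CRD replicate 2 at 7.17, and -0.64 (limma adjusted p = 0.0597) without control replicate 2. The Cy5 call was also lost without Fzd8-CRD replicate 1, 3, 4 or 5 or without control replicate 3 or 4 (-0.92 to -0.75, limma adjusted p from 0.0666 to 0.0892). Cy3 differed by -0.14. With the scanner's log ratio, in which all 5 Fzd8-CRD spots and 0 of 4 control spots had a surrogate Cy3 value for Tek and for Tie1 alike, Tie1 gave -0.51 (limma adjusted p = 0.606) and Tek -2.68 (limma adjusted p = 0.0170).

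Ptprb, the endothelial receptor phosphatase that acts on Tek and on the junctions of vessels, had the largest difference of the members. Its log2 ratio was 3.23, 4.35, 4.34 and 4.39 on the control arrays and 1.31, 2.17, 0.27, 0.87 and 0.21 on the Fzd8-CRD arrays. Every Fzd8-CRD array lay below every control, and control replicate 1 was the lowest of the controls. The difference was -3.12 (SE 0.42, limma adjusted p = 0.00439), 8.67-fold lower, and in Cy5 alone -2.30 (SE 0.31, limma adjusted p = 0.00261), 4.92-fold lower. In the order of all 18259 ratio differences Ptprb stood at place 5 from the lowest, and in Cy5 alone at place 25. Its Cy3 signal differed by -0.14 and was well above background on 3 of 4 control and 0 of 5 Fzd8-CRD arrays. The other Ptprb probes, A_51_P290931 and A_52_P54640, were not well above background on any array.

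Angpt2, the angiopoietin that endothelial cells release, was the member with the smallest adjusted p. The log2 ratio was 1.60, 1.44, 1.98 and 1.99 on the control arrays and 0.17, -0.35, -0.31, -0.61 and -0.37 on the Fzd8-CRD arrays, with a gap between the groups wider than the range of either. The difference was -2.05 (SE 0.18, limma adjusted p = 0.00116), 4.13-fold lower. Cy5 alone gave -1.71 (SE 0.19, limma adjusted p = 0.00136), and Cy3 differed by 0.13 in the other direction. Angpt2 and Ptprb were called lower under all 22 alternatives for the ratio and all 13 for Cy5 alone.

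Vegfa, the growth factor that Kdr and Flt1 bind, is made by many cell types, tumour cells among them, and its probes did not give the same answer. At the chosen probe, present in 10 spots, the log2 ratio was 0.90, -0.07, 0.65 and 0.68 on the control arrays and 0.86, 0.32, 1.55, 1.94 and 2.24 on the Fzd8-CRD arrays. Fzd8-CRD replicates 1 and 2 lay among the controls and replicates 3, 4 and 5 above all of them. The difference was 0.84 (95% interval -0.03 to 1.71, limma adjusted p = 0.167), and Cy5 alone gave 0.87 (limma adjusted p = 0.168), with a Cy3 difference of -0.062. The probe A_52_P638895, which targets the same record 1125 bases away, had log2 ratios of 0.57, -0.07, 0.56 and 0.81 on the control arrays and 1.22, 1.61, 1.98, 2.50 and 2.24 on the Fzd8-CRD arrays, without overlap. It was called higher, by 1.44 (SE 0.28, limma adjusted p = 0.0114 over all kept probes), and by 1.53 in Cy5 alone (limma adjusted p = 0.0149). The difference between the probes was not tested, and the mean of its kept probes gave 0.87 (limma adjusted p = 0.0780).

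Within the Fzd8-CRD group several members shared their highest or lowest array. Fzd8-CRD replicate 2 had the highest ratio of Kdr, Flt1, Tek, Tie1 and Ptprb in its group and the lowest of the chosen Vegfa probe. Fzd8-CRD replicate 5 had the lowest ratio of Kdr, Flt1 and Ptprb and the highest of Vegfa. Angpt2 did not follow that order, with its highest value on replicate 1. The order was not particular to the members. Endothelial markers outside the members, described below, had their highest median level of the group on replicate 2 (0.15) and their lowest on replicate 5 (-1.49). The genes whose group-centred ratios over the 9 arrays were most like the mean of Kdr, Flt1, Tek and Tie1 included D930020B18Rik (Pearson r = 0.989), Pgap3 (0.980), Unc45b (0.976) and Ndufa13 (0.974). Of these Unc45b was itself called lower (-1.78, limma adjusted p = 0.00544), and D930020B18Rik, Pgap3 and Ndufa13 were not called. Over the 8 arrays without control replicate 2 they included D930020B18Rik (0.988), Lipa (0.985), Pgap3 (0.982) and Tgm1 (0.982). The arrays share a reference, slides and normalization, and these are descriptions of 9 and 8 points.

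**Figure D3:**
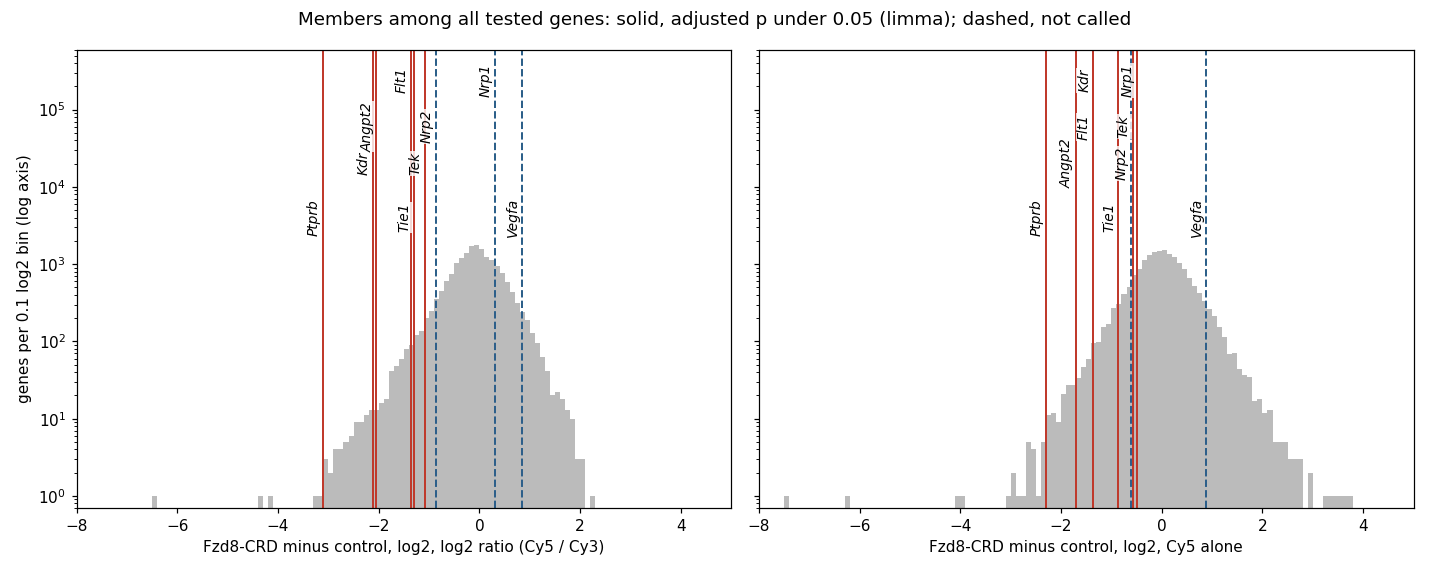
Number of genes (log axis, bins of 0.1) by the difference between Fzd8-CRD and control arrays, for the log2 ratio (left) and Cy5 alone (right), over the 18259 tested genes, with the members as lines that are solid where called and dashed where not. Ptprb lies at -3.12 and Angpt2 at -2.05 in the ratio, far in the lower tail, and Vegfa at 0.84 on the other side.

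Genes of the pathway outside the members were called in both directions, where 14.3% of all genes were called in the ratio. The lists are small, and none was tested against that share. Of 8 tested VEGF ligands and angiopoietin-like genes outside the members, 0 were called in the ratio (limma, adjusted p under 0.05) and 0 in Cy5 alone. Their median difference was -0.01. The angiopoietin-like genes were Angptl2, Angptl4, Angptl6 and Angptl7. Angpt1 and Angpt4 were also on this list but were not among the tested genes. Placental growth factor Pgf was at -0.26, Vegfb at -0.13, Vegfc at -0.06 and Vegfd at 0.27, none called. Of 29 genes of VEGF receptor signalling, 3 were called lower and 4 higher, a share above that background, with a median of 0.02. The lower genes were Rasip1 (-1.74, limma adjusted p = 0.00544), a regulator of vessel lumen formation, the endothelial nitric oxide synthase Nos3 (-0.93, limma adjusted p = 0.00544) and the adaptor Gab1 (-0.96, limma adjusted p = 0.0107). The higher genes were the sphingosine kinase Sphk1 (1.31), the phosphatase Ptpn1 (0.79), Dab2ip (0.62) and the kinase Prkca (0.61); Dab2ip lost its call without control replicate 2 (0.52, limma adjusted p = 0.0696). In Cy5 alone Dab2ip was at 0.11 (limma adjusted p = 0.676), with a Cy3 difference of -0.53. Prkca (0.41, limma adjusted p = 0.113) and Gab1 (-0.44, limma adjusted p = 0.151) were not called in Cy5 alone either.

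Among 13 co-receptors and partners, 2 were called lower and 3 higher, also a share above the background, with a median of 0.08. VE-cadherin, Cdh5, which binds Kdr and Ptprb at endothelial junctions, was at -2.55 (SE 0.57, limma adjusted p = 0.0195), and the neuropilin-binding adaptor Gipc1 at -0.87. Cdh5 is counted again among the endothelial markers below. The integrin subunit Itgb3 was higher by 1.55 (SE 0.17, limma adjusted p = 0.00261), Plxna3 by 0.68 and Tnip2 by 0.58; Plxna3 lost its call without control replicate 2 (0.58, limma adjusted p = 0.0807). Of 14 tip cell and VEGF-induced genes, 2 were called lower and 0 higher, with a median of -0.28. Counted in either direction this share was near the background, and counted as lower it was above the 7.76% of all genes. The lower genes were Esm1, a proteoglycan secreted by tip cells (-2.77, SE 0.28, limma adjusted p = 0.00174), and the Notch ligand Dll4 (-1.23, SE 0.24, limma adjusted p = 0.0119). Of 21 hypoxia response genes, a group that includes many genes induced together with Vegfa, 2 were called lower, Ankrd37 (-0.69) and Higd1a (-0.43), and 0 higher. Counted in either direction this share was below the background, and counted as lower it was slightly above the 7.76% of all genes.

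The members that fell did so beside markers of vessel cells. Of 23 tested endothelial markers outside the members, 21 were called lower in the ratio and 0 higher, with a median difference of -1.77, and 20 were lower in Cy5 alone; without control replicate 2 the count in the ratio was 18. It was 13 under scaling between arrays, under the deposited table and under the log ratio of the scanner, and 12 after the closest pairs of arrays were averaged. Sox7 (-2.71, limma adjusted p = 0.000324), Icam2 (-1.70) and Pecam1 (-1.24) had the smallest p. The list's median level, each gene set to its own mean over the 9 arrays, lay between 0.84 and 1.52 on the control arrays and between -1.49 and 0.15 on the Fzd8-CRD arrays. The value of 1.52 was that of control replicate 2, and the other controls lay between 0.84 and 0.94. In bulk samples of this kind, fewer cells of a type and less RNA per cell cannot be told apart. Each member was also set against the median of the 23 endothelial markers on the same array, and the difference between the groups taken on that scale. For Ptprb it was -1.20 in the ratio, from group SDs of 0.17 (n = 5) and 0.43 (n = 4), and -0.77 in Cy5 alone. Kdr differed by -0.20 in the ratio and 0.16 in Cy5 alone, and Angpt2 by -0.13 and -0.18. For Flt1 the values were 0.55 and 0.16, for Tek 0.83 and 0.95, and for Tie1 0.61 and 0.66. In both measures Ptprb thus differed more between the groups than the marker median did, and Tek and Tie1 differed less. Angpt2 lay on the same side as Ptprb in both measures, and Flt1 on that of Tek and Tie1, by smaller amounts. Tek and Tie1 were dim on the Fzd8-CRD arrays, and their ratio differences depended on the normexp offset. With 16 in place of 50 Tek moved from -1.08 to -1.64 and Tie1 from -1.31 to -1.75. The relative values were computed at offset 50 only, and the part of dim signal in them was not tested. Among the single markers none had a lower ratio difference than Ptprb at -3.12, and Emcn was next at -3.04. In Cy5 alone Emcn (-2.33) and Cd93 (-2.60) were lower than Ptprb (-2.30). The values relative to the marker median were chosen after the differences were seen and carry no test.

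**Figure D4:**
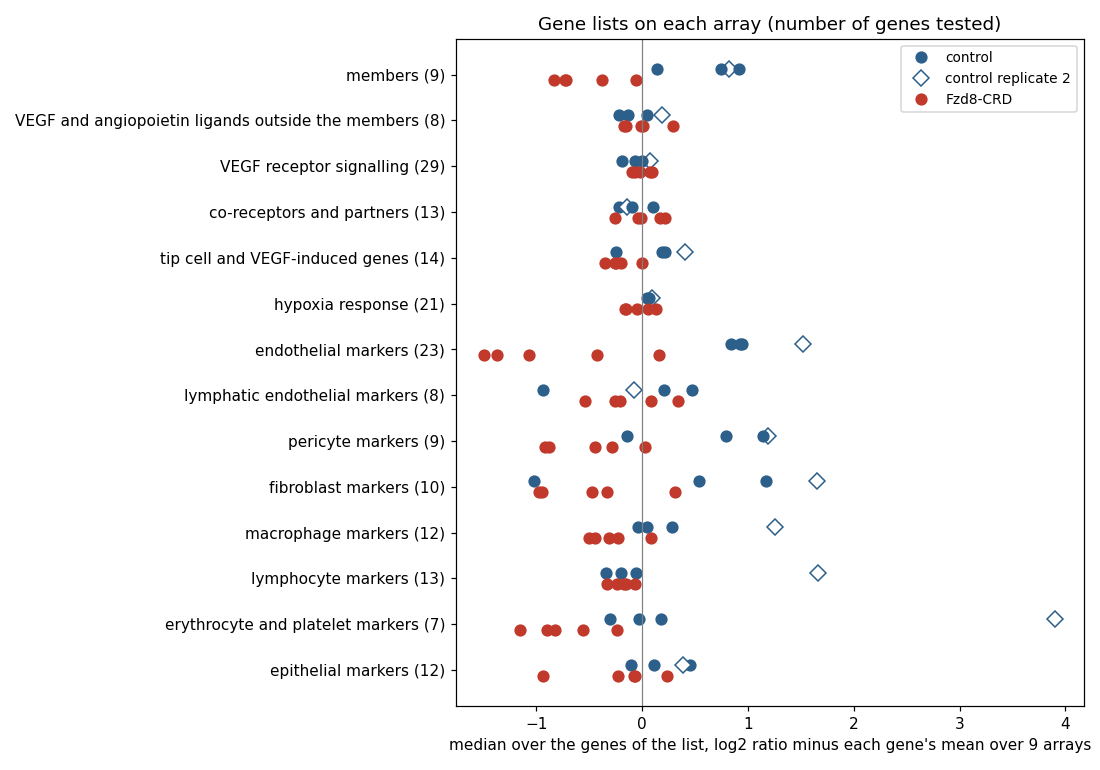
Median level of each gene list on each array, as log2 ratio minus each gene's mean over the 9 arrays, for the control arrays (blue, with control replicate 2 as an open diamond) and the Fzd8-CRD arrays (red); the number of tested genes is in brackets. Endothelial markers lie between 0.84 and 1.52 on control arrays and between -1.49 and 0.15 on Fzd8-CRD arrays, while control replicate 2 stands far to the right for lymphocyte (1.66) and erythrocyte and platelet markers (3.90).

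Other cell types differed between the groups in part. Over all genes, 7.76% were called lower in the ratio and 6.58% higher. The macrophage and lymphocyte counts below lay near these shares, and no list was tested against them. Pericyte markers were called lower for 4 of 9 genes, led by Kcnj8 (-2.86), Higd1b (-2.19) and Rgs5 (-2.89), and the list's median level was -0.14 to 1.19 on the control and -0.92 to 0.03 on the Fzd8-CRD arrays. Lymphatic endothelial markers were called for 0 of 8 genes in the ratio. Reln was called higher in Cy5 alone (1.53, limma adjusted p = 0.0309) and lost that call without control replicate 2 (1.45, limma adjusted p = 0.0539). Prox1, their defining regulator, was at -0.27 in the ratio (limma adjusted p = 0.359). Fibroblast markers were called lower for 2 of 10 genes (Thy1 and Fap). Pdgfra of that list went the other way, at 0.81 (limma adjusted p = 0.157). Without control replicate 2 it was called higher (1.20, limma adjusted p = 0.0154). The fibroblast median level was -1.03 to 1.65 on the control and -0.97 to 0.31 on the Fzd8-CRD arrays. Macrophage markers were called lower for 1 of 12 genes (Mrc1, which lost its call without control replicate 2 at -0.62, limma adjusted p = 0.0631), at -0.04 to 1.25 and -0.51 to 0.08. Lymphocyte markers were called higher for 1 of 13 genes (Cd8b1, with a Cy3 difference of -0.40 and no call in Cy5 alone), at -0.34 to 1.66 and -0.33 to -0.07. For all 3 lists the highest level was on control replicate 2. Erythrocyte and platelet markers were called lower for 3 of 7 genes, Hba-a1 (-4.31), Hbb-bt (-6.47) and Alas2 (-3.00), and their median level on control replicate 2 was 3.90, against at most 0.17 on any other array. Without that array all 3 were still called, at -3.49, -5.36 and -2.26, and the list's median difference moved from -1.71 to -0.23. The part of these cell types in the members' differences was not tested.

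The labelled tumour origin was checked on 12 epithelial markers, all of them tested. Epcam, Krt8, Krt18, Krt19 and Cdh1 were well above background on all 9 arrays, so epithelial RNA was present in both groups. Krt5 was called higher in the ratio (0.80), with a Cy3 difference of -0.80 and a Cy5 difference of 0.05 (limma adjusted p = 0.883). Esrp1 (-1.58) and Cldn4 (-1.31) were called lower; without control replicate 2 Cldn4 was at -1.02 (limma adjusted p = 0.0596). The median level of the list was -0.10 to 0.45 on the control arrays and -0.93 to 0.24 on the Fzd8-CRD arrays, which overlap.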

How the data were processed

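RNA of sorted tumour cells was measured on 9 dual-colour arrays, 4 control and 5 Fzd8-CRD, with tumour RNA in Cy5 and reference RNA in Cy3, per the labels. Per the file headers, the deposited scanner files (Feature Extraction 9.5.3.1 by Agilent) hold spot intensities and a log10 ratio of Cy5 to Cy3. The authors' deposited series table holds a linear ratio; on all arrays its log2 correlated with the scanner's values at 1, so its scale is linear and its direction is Cy5 over Cy3; its column medians were 0.835 to 0.956, so it was not centred on 1.

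Mean intensities were corrected with normexp (offset 50) against the median background, and log2 ratios were loess-normalized within arrays with control and outlier spots at weight 0. Spots of 1 probe were averaged, and outlier spots were left out. Kept were probes with a well-above-background Cy5 flag on 4 or more of 9 arrays (26823 probes, 65.1%); the brightest probe stood for its gene. Single channels were quantile normalized between arrays. Groups were compared with lmFit and eBayes in limma 3.58.1 (R 4.3.3), with Benjamini-Hochberg adjustment over all 18259 genes, or over all kept probes for probe values, at 0.05. A negative log2 difference means lower in Fzd8-CRD. The procedure was tested on simulated data. Replicate numbers follow accession order and pair nothing.

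The members and the gene lists were chosen with earlier results of these data known. Named were all members, and from each pathway list the called genes with the smallest p, up to 5 in each direction. Also chosen were the 5 genes most like the mean of Kdr, Flt1, Tek and Tie1. From the marker lists the 3 genes with the smallest p were considered, and in some lists not all of them are named. Prox1, Emcn, Cd93, Pdgfra, the uncalled VEGF ligands, the angiopoietin-like genes, Angpt1 and Angpt4 were named outside this rule. Other markers named for the check of the labels were chosen after their values were seen. Promoter windows come from RefSeq (GRCm38.p6). A gene among those most like the receptors and a Vegfa probe are not reported here.

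Alternatives were other background corrections and normalizations, the scanner's log ratio and the deposited table, Cy5 alone, stricter and absent filters for dim probes, averaging a gene's probes, array weights, slide as a random block, averaged closest pairs of arrays, and each array left out in turn.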

Additional observations from a re-analysis of the deposited data

Results flagged for a closer look

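Of the 36 groups of values examined (9 members, the ratio and Cy5 alone, 2 groups), 2 had an array far from the rest of its group by Dixon's test, and chance flags about 1 in 20 groups. For Ptprb, control replicate 1 had a log2 ratio of 3.23, and the next control was at 4.34. For Nrp1, Fzd8-CRD replicate 5 had a log2 ratio of -0.49, and the next array of its group was at -0.71. Neither array was far from its group in Cy5 alone by the same test.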

How the results depend on the processing

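Ptprb and Angpt2 kept their direction and call under all 22 alternatives for the ratio and all 13 for Cy5 alone, with ratio differences of -3.60 to -2.23 and -2.82 to -1.71, and Kdr and Flt1 kept theirs under all 13 for Cy5 alone. Against 6 members called in the ratio, 2 were called after the closest pairs of arrays were averaged, and 5 to 7 with each array left out. Against 7 in Cy5 alone, 4 were called when probes had to be above background on all arrays, which left 6 members tested, and 4 to 8 with each array left out. The 2618 genes called in the ratio became 608 with median centring, 1629 with scaling between arrays, 337 with averaged pairs, 6739 with array weights and 5504 with slide as a random block, and 1338 to 3096 with each array left out; the 3431 of Cy5 alone became 2068 to 3475. List genes called, 50 in all, became 32 with scaling, 82 with weights, 78 with the random block and 24 with averaged pairs. The cause was not tested.

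Directions turned for Kdr with the scanner's log ratio (0.33) and the deposited table (0.30), and for Nrp1 with these (-0.88 in both), with scaling (-0.032) and in Cy5 alone (-0.50). Probe Nrp1 A_52_P371237 turned to -0.021 with background left in, -1.15 with the scanner's log ratio and the table, -0.20 with scaling and -0.16 in Cy5 alone, and in Cy5 alone to 0.044 with median centring, where probe Tek A_52_P234087 turned to 0.15. Median centring of Cy5 moved the median of all genes to -0.19. The Flt1 ratio call was lost with median centring (-1.28), scaling (-1.43) and averaged pairs (-1.48), and that of Kdr with scaling (-1.09) and averaged pairs (-2.30). Vegfa was not called under any of its 35 alternatives; its called probe A_52_P638895 lost the call with median centring and with scaling. No paired analysis was possible because the labels give no replicate numbers. Dim Cy3 signals of Kdr, Tek, Tie1 and Ptprb limit their ratios.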
